A study of Homo sapiens with 12 samples.

Results

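The insulin-like growth factor (IGF) axis was examined here through 10 genes that encode the ligands IGF1 and IGF2, the receptors IGF1R and IGF2R, and the binding proteins IGFBP2 to IGFBP7. They were taken by gene symbol from the gene probes of an Agilent whole human genome array, which gave 22 of 41000 probes, each 60 bases long, on 49 spots. The RNA came from Rh30, an established human alveolar rhabdomyosarcoma cell line with the PAX3-FKHR fusion gene (FKHR is now FOXO1), in 3 cultures. WT is the parental line. CON is a stable clone that carries a retroviral vector with a non-targeting short hairpin RNA, and KD1 is a stable clone of the same vector with a hairpin directed at PAX3-FKHR. Both clones were selected with puromycin and kept in it (1 μg/mL), which WT never received, so the vector, the selection and the cloning step separate both clones from WT and cannot be told apart from each other in any comparison with WT. One KD1 clone and 1 CON clone were hybridised, so in KD1 vs CON the hairpin cannot be told apart from other differences between the 2 clones. Each culture gave 2 RNA extracts (replicates 1 and 2), taken 24 h after plating, and each of the comparisons KD1 vs CON, KD1 vs WT and WT vs CON was made on 4 arrays with 2 dyes, a dye-swap pair for each replicate.

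IGF1 and IGF2 are secreted peptides that bind IGF1R, a receptor tyrosine kinase that signals through the insulin receptor substrates to the PI3K-AKT-mTOR and RAS-MAPK pathways. IGF2R, the mannose-6-phosphate receptor, has no kinase domain and carries IGF2 to lysosomes. The binding proteins hold the ligands outside the cell and set how much reaches the receptor. In rhabdomyosarcoma, IGF2 is known as an abundant growth factor made by the tumour cells themselves, and IGF1R has been described as a target of PAX3-FKHR.

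The probes that report these transcripts are 60-base oligonucleotides, and their sequences decide which part of a transcript each value stands for. The 3 below bind coding sequence of members discussed in the results. The IGF2 and IGFBP5 probes cover 353 and 1289 bases of the genome, so they cross a splice junction and match spliced mRNA, whereas the IGFBP6 probe lies in a single exon.
IGF2 probe A_23_P421379: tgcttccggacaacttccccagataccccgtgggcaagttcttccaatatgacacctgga
IGFBP5 probe A_23_P376497: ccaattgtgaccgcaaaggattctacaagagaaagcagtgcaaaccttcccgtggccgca
IGFBP6 probe A_23_P139912: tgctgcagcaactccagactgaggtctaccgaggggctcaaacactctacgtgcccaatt
On build NCBI36, which the deposited files use, the IGF2 probe spans chr11:2110978-2111330, the IGFBP5 probe chr2:217249829-217251117 and the IGFBP6 probe chr12:51781120-51781179. The single probe of IGFBP2, A_23_P119943, lies at chr2:217237331-217237390 in the 3′ untranslated part of its transcript.

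IGFBP2 is the member whose level differed most between the cultures. The 250 bases before the first of the 3 transcription starts that RefSeq lists for it are therefore printed, from chr2:216632578-216632827 on the plus strand of GRCh38.p14, with the GC box GGGCGG in capitals.
IGFBP2 upstream sequence: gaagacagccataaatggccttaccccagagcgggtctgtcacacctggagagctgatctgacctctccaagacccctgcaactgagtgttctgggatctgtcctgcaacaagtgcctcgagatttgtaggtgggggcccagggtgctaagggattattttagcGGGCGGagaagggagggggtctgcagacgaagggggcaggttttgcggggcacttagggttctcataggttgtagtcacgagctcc
These 250 bases have 56.8% G or C and 7 CG dinucleotides. They hold 1 GC box, a motif found on either strand in 42.6% of 35116 promoter windows of the same length, and 2 copies of GTCAC, the core of the site bound by the paired domain of PAX proteins, which 37.3% of the windows hold. TATAAA, present in 10.7% of the windows, is not among these letters. Of the windows before the other 2 starts, neither holds GTCAC, and the one at chr2:216633170-216633419 has 69.2% G or C and 22 CG dinucleotides. The paired-domain motif that the authors searched for, GTTC/AT/C, was not counted here. The counts describe the sequence and no binding was measured.

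A level is the normalised, background-subtracted fluorescence of 1 culture's RNA on a probe, in arbitrary units, averaged over the 4 arrays that an extract was hybridised to. Levels compare extracts on 1 probe and never 1 probe with another. Where cultures are said not to overlap, only 2 extracts of each are compared. The share of all probes with such a gap was not counted, so a gap is a description and not a test. A ratio is the log2 ratio of 2 cultures on the same array, averaged over the dye-swap pair. Ratios were tested with limma across all probes whose signal exceeded the negative controls, 21925 probes for KD1 against CON, 24860 for KD1 against WT and 26566 for WT against CON, and a probe was called at a Benjamini-Hochberg adjusted p under 0.05. Extracts of 1 replicate number were compared with each other, so p-values measure the spread between 2 replicates, for which the labels name no separate passages or days. With 2 replicates, a missing call does not show that levels were alike.

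Between 64.4% and 73.6% of the gene spots were well above background per array and dye, and no spot was saturated. Across probes, the ratios of replicates 1 and 2 correlated with r = 0.70 for KD1 against CON, 0.48 for WT against CON and 0.39 for KD1 against WT. The targeted gene was checked through probes of PAX3 and FOXO1, parts of which the fusion transcript contains. PAX3 (probe A_23_P502706) was at 327 and 280 in KD1, 407 and 384 in CON, and 452 and 368 in WT, and FOXO1 (A_23_P151426) was at 4775 and 5702, 5358 and 8771, and 7985 and 7250. Every replicate ratio of KD1 on this PAX3 probe lay below 0, with means of -0.42 against CON and -0.39 against WT. In the same order, PAX3 probe A_24_P362595 gave -0.28 and -0.25. PAX3 probe A_23_P209499 gave -0.09 and 0.06, with replicates on opposite sides of 0. It lies at transcript position 3107, the other PAX3 probes at 762 and 817, and whether the fusion transcript holds that part was not checked. FOXO1 probe A_23_P151426 gave -0.42 and -0.60, with all 4 arrays below 0 in each. The second FOXO1 probe, A_24_P22079, gave -0.39 and -0.30. Neither gene was called in any comparison, and A_23_P502706 and A_23_P151426 also bind the transcripts of the unfused genes. Of 9 markers of rhabdomyosarcoma and muscle, 8 were well above background in every channel, MYOD1 and desmin (DES) among them. WT replicate 2 stood apart in some of the epithelial markers. EPCAM was at 164 there and between 3.41 and 3.93 in the other 5 extracts, and KRT19 was at 441 against 26.1 to 49.1. KRT8 did not set it apart, at 1141 there against 898 to 1144. The summed level of the 5 epithelial markers was 2277 and 3450 in the WT replicates, 1632 and 1858 in CON and 1607 and 1892 in KD1. Ratios that set WT apart are therefore also given without that extract, where the ratio is that of replicate 1. The KD1 vs CON ratios do not use that extract, but their p-values share its spread.

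By its brightest probe, 6 of the 10 members (IGF2, IGF1R, IGF2R, IGFBP2, IGFBP3 and IGFBP6) were well above background in every channel of all cultures. IGFBP7 was not well above background in any. IGFBP2 was 31.6-fold lower in KD1 than in WT and 33.9-fold lower in CON than in WT, and both clones had it at a similar low level. IGF2 was highest in CON by all 4 of its probes, and only 1 of these passed the test, in WT vs CON. IGF1R had its lowest mean level in KD1 and IGFBP5 its highest, without a call.

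**Figure D1:**
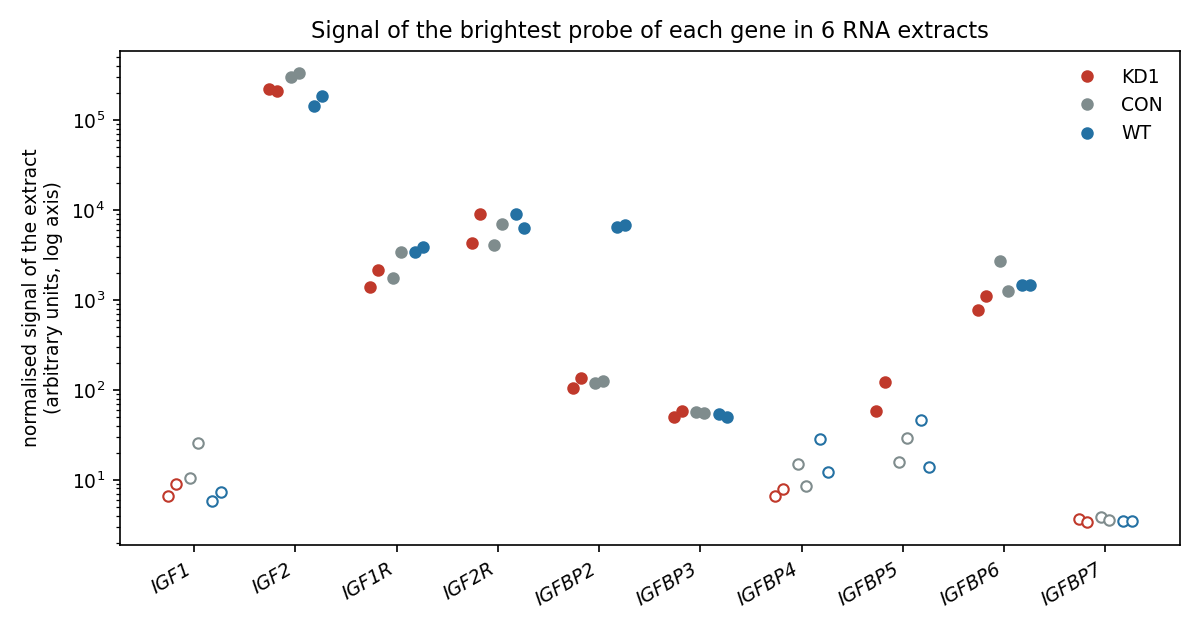
Levels of the 10 members by their brightest probe (vertical log axis, arbitrary units) in the 2 extracts each of KD1, CON and WT, replicate 1 to the left of replicate 2. Filled points mark cultures in which all 8 channels were well above background, open points the others. IGFBP2 stands at 6451 and 6745 in WT and between 104 and 134 in the clones; heights compare cultures within a gene only.

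Across the members tested by their brightest probe, limma called none of 4 in KD1 vs CON (2, IGF2 and IGFBP6, had an unadjusted p under 0.05, as 17.2% of all probes did), where 1.81% of all probes were called. One of 7, IGFBP2, was called lower in KD1 vs WT, where 1.09% of all probes were called and 0.8% were called lower. One of 7, again IGFBP2, was called higher in WT vs CON, where 1.42% of all probes were called and 0.802% were called higher. At an unadjusted p under 0.05 there were 3 of 7 members in KD1 vs WT and 2 of 7 in WT vs CON, beside 17.2% and 16.5% of all probes. The median ratio of the tested members was -0.64 for KD1 against CON, -0.29 for KD1 against WT and 0.27 for WT against CON, beside -0.01, 0.01 and -0.03 over all probes tested. The members that did not pass the filter on dim probes in KD1 vs CON were IGF1, IGFBP2, IGFBP3, IGFBP4, IGFBP5 and IGFBP7, and their ratios are given below without a test. On 1 array of replicate 1 in this comparison the limit set by the negative controls was 40.6 in both dyes, the highest of all arrays. IGFBP2 and IGFBP3 missed the filter only there, though they were well above background in every channel.

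**Figure D2:**
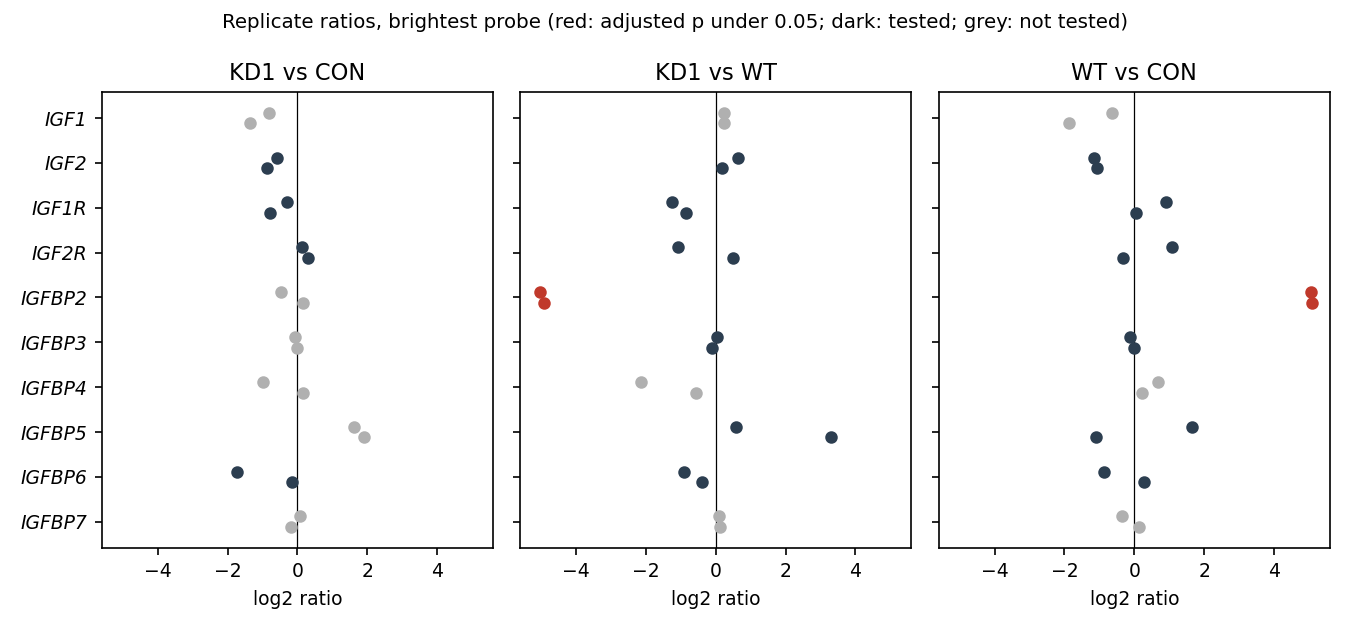
Log2 ratio of each replicate (2 points per gene, horizontal axis) for the brightest probe of the 10 members in the 3 comparisons. Red points have an adjusted p under 0.05, dark points were tested and not called, and grey points were too dim on at least 1 array to be tested. IGFBP2 lies at -5.03 and -4.93 in KD1 vs WT and at 5.07 and 5.09 in WT vs CON, apart from every other member.

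IGFBP2, the second of the classical binding proteins, keeps IGF2 and IGF1 from the receptor and also binds integrins through an RGD motif. Its level was 6451 and 6745 in the WT replicates, 119 and 126 in CON, and 104 and 134 in KD1. WT was far above both clones, with no overlap, while the ranges of CON and KD1 overlapped. In KD1 vs WT the replicate ratios were -5.03 and -4.93 (mean -4.98 ± 0.07, SD, n = 2; limma adjusted p = 0.000153), the 14th largest of 24860 probes. In WT vs CON they were 5.07 and 5.09 (mean 5.08 ± 0.01, SD, n = 2; limma adjusted p = 0.000296), the 8th largest of 26566. In KD1 vs CON the ratios were -0.48 and 0.15, on opposite sides of 0. On 1 array the probe stayed below the negative-control limit of 40.6, so it was not tested. Without WT replicate 2 the ratio was -5.03 in KD1 vs WT (adjusted p = 0.0412) and 5.07 in WT vs CON (adjusted p = 0.0797). Without WT replicate 1 it was -4.93 (adjusted p = 0.0541) and 5.09 (adjusted p = 0.0632). IGFBP2 was as high in WT replicate 1, where EPCAM was at 3.90 and not well above background, as in WT replicate 2. Among the muscle markers MYF5, an early myogenic factor, read highest in WT, at 8784 and 8283, beside 2516 and 3679 in CON and 3368 and 1539 in KD1 (limma adjusted p = 0.0680 against KD1 and 0.0948 against CON, and 0.252 and 0.191 without WT replicate 2), and KRT18, which the epithelial list holds, was at 1346 and 1686 in WT and at 659 to 887 in the clones (adjusted p = 0.0516 and 0.0814, and 0.122 and 0.134 without WT replicate 2). The other KRT18 probes read 180 and 562, and 77.4 and 292, in WT, with WT replicate 2 the higher. KRT8, of the same list, read 898 and 1141 in WT, 911 and 915 in CON, and 913 and 1144 in KD1. The part of these markers in the IGFBP2 result was not tested.

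The signal that the clones gave for IGFBP2 depended on which RNA shared the array. On the 4 arrays of KD1 against CON, KD1 read 51.8 to 96.1 and CON 62.2 to 90.4. On arrays shared with WT, KD1 read 146 to 279 and CON 157 to 238, so no value of either clone overlapped between the settings. The WT channel read 5962 to 6993 beside KD1 and 6245 to 7265 beside CON. A fit that took each culture from all of its arrays, and not within the array, gave a larger distance, -5.80 for KD1 against WT and 5.75 for WT against CON. A correction with normexp, which adds an offset to dim signals, gave a smaller one, -4.09 and 4.22. The direction and the call held in all of these fits, while the fold is uncertain by about these amounts. The reason for the higher clone signal beside WT was not tested.

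**Figure D3:**
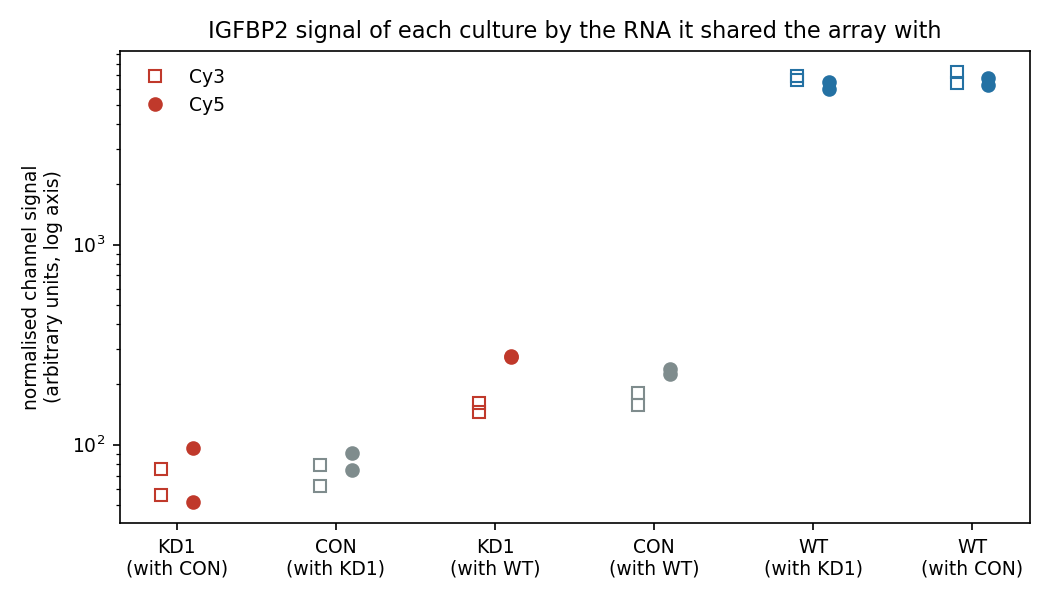
IGFBP2 signal of each array channel (vertical log axis, arbitrary units) by culture and by the RNA on the same array; open squares are Cy3 and filled circles Cy5, with 2 replicates each. The clones read 51.8 to 96.1 beside each other and 146 to 279 beside WT, and WT read 5962 to 7265.

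IGF2, the ligand, is the gene with the most probes that worked, and all 4 put CON above KD1 and KD1 above or near WT. The brightest probe, A_23_P150609 at chr11:2106970-2107029 near the end of the transcript, read 224310 and 211860 in KD1, 300180 and 333450 in CON, and 145720 and 185650 in WT. The 3 cultures did not overlap on it. Its ratio was -0.73 ± 0.19 for KD1 against CON (limma adjusted p = 0.136), 0.41 ± 0.32 for KD1 against WT (adjusted p = 0.365) and -1.11 ± 0.07 for WT against CON (adjusted p = 0.0590; SD, n = 2 each). Without WT replicate 2 the ratios that involve WT were 0.64 (adjusted p = 0.168) and -1.16 (adjusted p = 0.129). The KD1 to CON distance thus was a 1.66-fold lower value in KD1 that did not pass the test.

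The probe across the coding splice junction, A_23_P421379, whose sequence stands above, read 3680 and 4393 in KD1, 6057 and 9146 in CON, and 1875 and 3358 in WT. Again no culture overlapped another. IGF2 was called lower in WT than in CON by this probe, as 0.617% of all probes were, at -1.62 and -1.16 (mean -1.39 ± 0.32, SD, n = 2; limma adjusted p = 0.0415), 2.62-fold. The adjusted p was 0.558 without CON replicate 1, 0.229 without CON replicate 2, 0.153 without WT replicate 1, 0.116 without WT replicate 2 and 0.126 in a fit of separate channels with no replicate block. It was 0.110 with normexp, 0.0584 with median centring, 0.0851 with no filter on dim probes and 0.0602 with the degrees of freedom as limma counts them, so the call was lost in each of these 9 fits, with a ratio from -1.62 to -1.16. KD1 vs CON gave -0.75 ± 0.16 (adjusted p = 0.153) and KD1 vs WT 0.66 ± 0.44 (adjusted p = 0.211).

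The remaining 2 IGF2 probes, A_24_P936758 and A_32_P56661, were designed on a cDNA clone that the files name IGF2 and are listed in ascending genome order, opposite to the first pair, so the strand they read is not settled by the files. The brightest probe is also listed for a noncoding transcript record, and transcripts that share its sequence are not told apart. They gave -0.61 and -0.73 for KD1 against CON, and -0.97 and -1.40 for WT against CON. Every array of every IGF2 probe lay below 0 against CON, whether KD1 or WT was the other culture. Both replicate values, a looser condition than all 4 arrays, were below 0 for 37.2% of all tested probes with KD1 and 32.9% with WT. In KD1 vs WT, 1 of 4 arrays lay below 0 for the brightest probe and the replicates were uneven, at 0.64 and 0.19. The IGF2 probes share the same arrays and are not replicates of each other.

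MYOG, the myogenic differentiation factor, was ordered across the cultures as IGF2 was, by its mean level. It read 1112 and 2183 in KD1, 2935 and 3595 in CON, and 691 and 1580 in WT, and its ratio was -1.15 in KD1 vs CON (limma adjusted p = 0.0526) and -1.81 in WT vs CON (adjusted p = 0.0173; 0.112 without WT replicate 2). The other 7 muscle markers that were tested were not called in WT vs CON, and the 9 summed to 143900 and 215100 in KD1, 139900 and 166800 in CON, and 157700 and 144100 in WT. The part of the differentiation state in the IGF2 values was not tested.

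**Figure D4:**
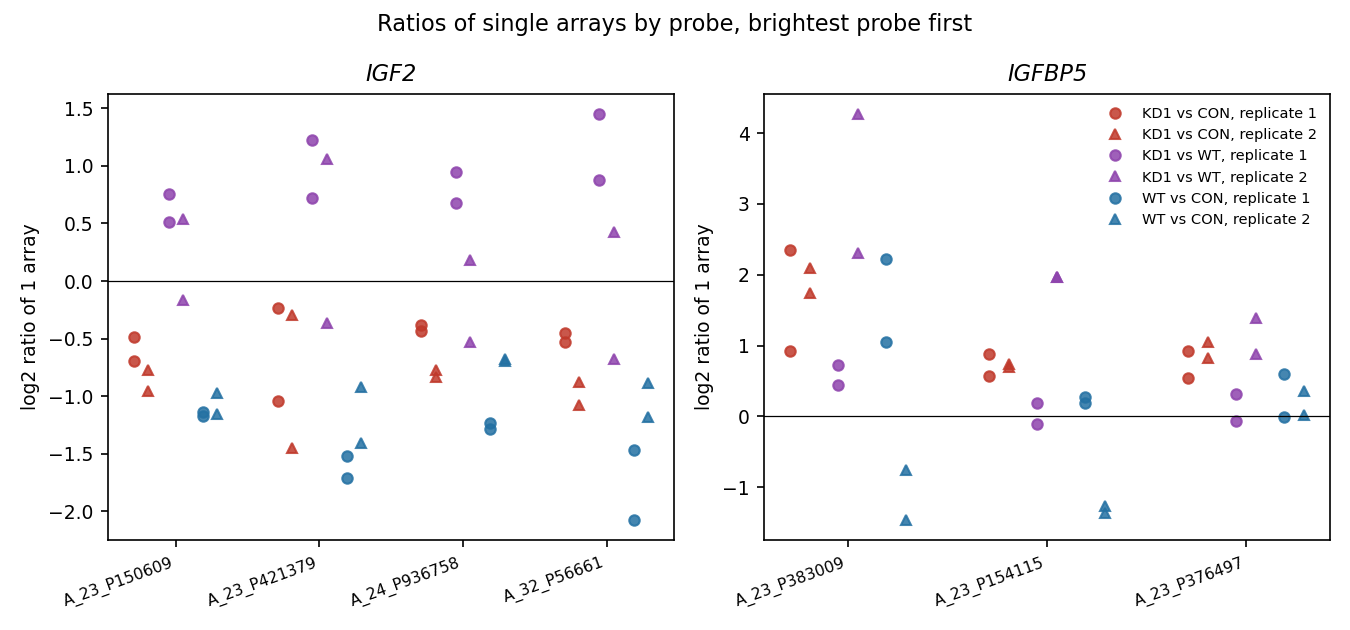
Log2 ratio of each single array (vertical axis) for the 4 probes of IGF2 (left) and the 3 probes of IGFBP5 (right), the brightest probe first, coloured by comparison, with circles for replicate 1 and triangles for replicate 2. All IGF2 points of KD1 vs CON and WT vs CON lie below 0. All IGFBP5 points of KD1 vs CON lie above 0, while its KD1 vs WT points reach 3.29 on average in replicate 2 and 0.59 in replicate 1 for the brightest probe.

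IGF1, the second ligand, was near background. Its brightest probe, A_23_P13907, read 6.60 and 8.95 in KD1, 10.6 and 26.0 in CON, and 5.79 and 7.30 in WT, and was well above background in 6 of 8 CON channels and in none of KD1 or WT. CON was therefore at least 1.18-fold above KD1 and at least 1.11-fold above WT, a bound set by the lowest signal that counted as well above background. CON replicate 1 lay below that limit, at 0.751 and 0.709 of it, so the bound rested on CON replicate 2, which was 1.84-fold and 1.74-fold above it. Of the other 3 IGF1 probes, none was well above background in more than 2 CON channels.

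IGF1R, the signalling receptor, read 1401 and 2176 in KD1, 1751 and 3464 in CON, and 3406 and 3918 in WT on its brightest probe, A_23_P417282 at chr15:97324889-97324948 in the 3′ untranslated part. KD1 lay below WT without overlap, and KD1 and CON overlapped. The ratio was -1.06 ± 0.28 in KD1 vs WT (SD, n = 2; limma adjusted p = 0.107), a 2.08-fold lower value, and -0.55 ± 0.35 in KD1 vs CON (adjusted p = 0.310). Without WT replicate 2 the KD1 vs WT ratio was -1.26 (adjusted p = 0.122). All 4 arrays lay below 0 in both. A second probe, A_23_P205986, measured on 10 spots per array, read 77.6 and 73.8 in KD1, 95.9 and 108 in CON, and 127 and 109 in WT. It gave -0.61 ± 0.16 in KD1 vs WT (adjusted p = 0.208, and 0.151 without WT replicate 2) and -0.48 ± 0.20 in KD1 vs CON (adjusted p = 0.297). Both replicate values of both probes were thus below 0 in KD1, which 37.2% of all probes also showed against CON and 27.6% against WT. The last probe, A_23_P305680, was not well above background in any channel.

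IGF2R, the receptor that clears IGF2, differed more between replicates than between cultures. Probe A_23_P334021 read 4329 and 9119 in KD1, 4126 and 7093 in CON, and 9026 and 6322 in WT. KD1 vs CON gave 0.21 ± 0.12 (limma adjusted p = 0.847), while KD1 vs WT gave -1.07 in replicate 1 and 0.50 in replicate 2. The second probe, A_23_P156953, showed the same split, with -0.90 and 0.34. The sign of the difference from WT thus changed with the replicate on both probes.

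IGFBP5, a binding protein that is deposited in the extracellular matrix and rises in differentiating muscle, read higher in KD1 than in CON on each of its 3 probes, none of which passed the filter for that test. Its brightest probe, A_23_P383009, read 58.5 and 122 in KD1, 15.6 and 29.4 in CON, and 46.2 and 13.9 in WT. KD1 lay above CON without overlap, and the WT replicates lay on either side of CON. The KD1 vs CON ratios were 1.64 and 1.92 (mean 1.78 ± 0.20, SD, n = 2), 3.43-fold. KD1 was well above background in all 8 channels and CON in 6 of 8. The probe failed the filter on both arrays of replicate 1. There the limit set by the negative controls was 40.6 in both dyes on 1 array, and 27.7 (Cy3) and 15.9 (Cy5) on the other. On the arrays of replicate 2 the limit was 3.49 to 4.19. With no filter on dim probes the adjusted p was 0.332. The ratio was 1.21 with median centring and 0.31 with normexp, below the size of the IGFBP6 ratio in that fit (-0.88).

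The other probes of IGFBP5 gave a smaller distance. A_23_P154115 read 58.4 and 72.6 in KD1, 40.5 and 43.7 in CON, and 52.5 and 17.7 in WT, a KD1 vs CON ratio of 0.72 ± 0.01. The coding probe A_23_P376497, whose sequence stands above, read 27.0 and 32.9 in KD1, 16.9 and 15.5 in CON, and 23.4 and 14.8 in WT, a ratio of 0.83 ± 0.14. All 4 arrays lay above 0 in KD1 vs CON on each of the 3 probes. Both replicate values, a looser condition, were above 0 for 34.5% of all tested probes, which include no IGFBP5 probe. Against WT, the brightest probe gave 0.59 in replicate 1 and 3.29 in replicate 2 (limma adjusted p = 0.186). WT replicate 2, the extract that stood apart in EPCAM, had the lowest IGFBP5 level of all extracts on this probe, and without replicate 2 the ratio is the 0.59 of replicate 1. It was called without KD1 replicate 1 (ratio 3.29, adjusted p = 0.0419), a fit in which the ratio is that of replicate 2.

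IGFBP6, which prefers IGF2 over IGF1, read 783 and 1098 in KD1, 2720 and 1267 in CON, and 1465 and 1477 in WT. KD1 was the lowest culture in both replicates, and CON replicate 1 was the highest extract. Its KD1 vs CON ratios were -1.74 and -0.16 (mean -0.95 ± 1.12, SD, n = 2; limma adjusted p = 0.235) and its KD1 vs WT ratios -0.91 and -0.39 (adjusted p = 0.416), so the size rested on replicate 1.

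IGFBP3, the main carrier of IGFs in blood, differed little between cultures, with levels of 49.5 to 57.9 on the coding probe A_24_P320699 and mean ratios of -0.05 for KD1 against CON, -0.03 for KD1 against WT and -0.06 for WT against CON. Its second probe, in the 3′ untranslated part, was not well above background in any channel. IGFBP4, the substrate of the protease PAPPA, was well above background in 4 of 8 WT channels, 1 CON channel and no KD1 channel. It read 28.2 and 12.2 in WT and 6.59 and 7.93 in KD1, at least 1.30-fold higher in WT. WT replicate 2 lay below the limit, at 0.859 of it, so this bound rested on WT replicate 1, which was 1.98-fold above it. IGFBP7, a weak IGF binder, stayed between 3.37 and 3.90 in all extracts.

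The other genes of the pathway were grouped into 5 lists of 67 genes. Of 50 genes tested, 1, IRS2, was called, higher in KD1 than in CON, beside 0.78% of all probes called higher there. Of 55 genes tested in each comparison with WT, none was called in KD1 vs WT and 1, again IRS2, was called higher in WT than in CON. The share of all probes called in KD1 vs WT was 1.09%. At an unadjusted p under 0.05 there were 14 of 50, 11 of 55 and 4 of 55 genes in the order KD1 against CON, KD1 against WT, WT against CON, beside 17.2%, 17.2% and 16.5% of all probes. Limma called none of 23 PI3K-AKT-mTOR genes and none of 11 RAS-MAPK genes, all of which were well above background throughout, and their ratios ran from -0.96 to 1.07 over the comparisons. In the same order, the genes with an unadjusted p under 0.05 included 6, 5 and 1 PI3K-AKT-mTOR genes and 2, 3 and 1 RAS-MAPK genes. AKT1, the kinase at the centre of the first list, gave 0.07 for KD1 against CON and 0.18 for KD1 against WT. RPS6KB1, the S6 kinase downstream of mTOR, gave -0.80 in KD1 vs CON (adjusted p = 0.110), and DUSP6 and SPRY2, feedback inhibitors of ERK signalling, gave 0.96 and 0.73 there (adjusted p = 0.133 and 0.185).

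IRS2, an adaptor that couples IGF1R and the insulin receptor to PI3K, was the one pathway gene called, in both comparisons with CON. Its probe A_24_P154037, at chr13:109204646-109204705, read 1520 and 2255 in KD1, 510 and 678 in CON, and 1322 and 1922 in WT. CON lay below both other cultures without overlap, and KD1 and WT overlapped. IRS2 was lower in CON than in KD1, with KD1 vs CON ratios of 1.58 and 1.70 (mean 1.64 ± 0.08, SD, n = 2, limma adjusted p = 0.00866), 3.12-fold. It was also lower in CON than in WT, 2.69-fold (1.43 ± 0.02, adjusted p = 0.0220). KD1 vs WT gave 0.24 ± 0.10 (adjusted p = 0.581). The KD1 vs CON call was lost with separate channels and no replicate block (adjusted p = 0.0606), without CON replicate 1 (0.0799) and without CON replicate 2 (0.168), and the WT vs CON call without either CON or either WT extract (0.118 to 0.288), with separate channels and no replicate block (0.116) and with normexp (0.109). The other IRS2 probes gave 0.99 and 0.62 in KD1 vs CON, in the same direction and smaller. IRS1, its paralog, gave -0.10 (adjusted p = 0.868).

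**Figure D5:**
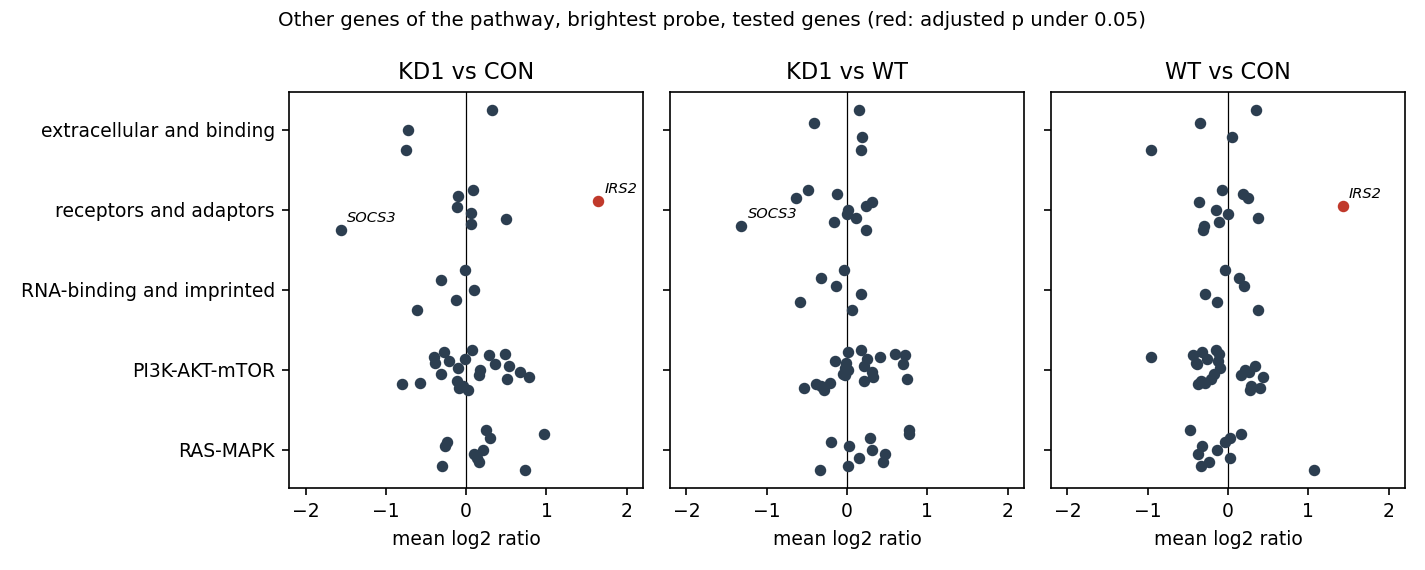
Mean log2 ratio (horizontal axis) of each tested pathway gene by its brightest probe, in 5 lists and 3 comparisons; red marks an adjusted p under 0.05. IRS2 is the only red point, at 1.64 in KD1 vs CON and 1.43 in WT vs CON, and SOCS3 lies lowest in both KD1 comparisons, at -1.56 and -1.32.

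SOCS3, a feedback inhibitor of cytokine and insulin signalling, was the one pathway gene at least 2-fold apart in the same direction in both KD1 comparisons, which share the KD1 extracts and which 1.49% of probes showed. It read 5001 and 2751 in KD1, 10188 and 11090 in CON, and 7909 and 10327 in WT, with KD1 below both without overlap. Its ratios were -1.05 and -2.08 against CON (limma adjusted p = 0.0583) and -0.66 and -1.97 against WT (adjusted p = 0.113, and 0.360 without WT replicate 2). Without KD1 replicate 1 the ratios are those of replicate 2, -2.08 and -1.97. Without KD1 replicate 2 they are those of replicate 1, -1.05 and -0.66, so the size rested on replicate 2.

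The proteins that act on IGFs outside the cell were mostly dim. Of 10 genes, 3 were tested in KD1 vs CON and 4 in each comparison with WT, and limma called none (2, 0 and 1 had an unadjusted p under 0.05, beside 17.2%, 17.2% and 16.5% of all probes). STC2, an inhibitor of the PAPPA protease, followed the order of IGF2, with 4990 and 6699 in KD1, 10152 and 9284 in CON, and 4646 and 5519 in WT, and ratios of -0.75 in KD1 vs CON (limma adjusted p = 0.141) and -0.96 in WT vs CON (adjusted p = 0.0916; -1.16 and 0.132 without WT replicate 2). IGF2BP1 and IGF2BP3, RNA-binding proteins that bind IGF2 mRNA, gave 0.09 and -0.62 in KD1 vs CON without a call. H19, the imprinted neighbour of IGF2, was near background, at 7.99 to 19.6.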

How the data were processed

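RNA of 6 extracts was hybridised to 12 arrays. The authors scanned them and deposited, per spot, linear intensity values from Agilent Feature Extraction 10.5.1.1: mean, background and processed signals after detrending and lowess, with positions on NCBI36. The authors also deposited a log10 ratio of red over green and a series table of log2 ratios. The deposited table served as an alternative, and each of its columns has a median of 0. After turning dye swaps, it differs from the deposited ratio on a log2 scale by at most 5.0e-06, on probes with 1 spot. It is not identical to the ratios of processed signals used here. Before turning, r with these was 0.93 to 0.96, and -0.97 to -0.90 for dye swaps.

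Log2 ratios were computed from the processed intensities, averaged over spots without outlier flags and over each dye-swap pair, giving 6 values (2 per comparison). They were fitted with limma 3.58.1 in R 4.3.3, with 1 coefficient per comparison and 2 residual degrees of freedom, because the 3 ratios of a replicate share 3 extracts. A probe was tested if the background-subtracted signal of at least 1 channel exceeded the 99th percentile of 153 negative controls on every array of the comparison. Adjustment was by Benjamini-Hochberg over all tested probes. Levels are channel values after Aquantile normalisation. Each gene is given by the probe with the highest mean signal, and no level was compared between probes. The number of arrays limits the precision.

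All members were described. Other pathway genes were named if called or at least 2-fold apart in both KD1 comparisons, and AKT1, RPS6KB1, DUSP6, SPRY2, STC2, IRS1, IGF2BP1, IGF2BP3, H19, MYF5, KRT8, KRT18, KRT19, EPCAM and MYOG after their values were seen. The members and lists were chosen with earlier results of these data known. The comparison runs within arrays of 1 replicate number. Deviations of same-numbered extracts correlated across 21870 probes with 0.54 for KD1 and CON, -0.07 for KD1 and WT and -0.02 for CON and WT, so the numbers were not taken to pair the extracts beyond their shared arrays. Slide 2 held the WT vs CON arrays and the other slides 1 replicate each of the KD1 arrays, so slide and replicate cannot be told apart there. Alternatives were normexp with an offset of 50 and loess, median centring, the series table, 2 other filters, the degrees of freedom as limma counts them, dye effects per slide, separate channels with no replicate block, other probes, and each extract left out (chosen after seeing the data). The fit was tested on 20 simulated data sets of 21925 probes, with 200 of them changed by a log2 ratio of 2 in KD1. In KD1 vs CON it called 51% of the changed probes, with a mean of 2 false calls. Promoter windows are from RefSeq (GRCh38.p14), in which 8 of 10 members had an entry; IGF2 and IGFBP7 did not. Sequences were read from the scanner files and from that table. Columns with no matching sample numbered 0.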

Additional observations from a re-analysis of the deposited data

Results flagged for a closer look

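IGFBP2 and IRS2 differed between the KD1 comparisons. For IGFBP2 the ratio of KD1 vs CON minus that of KD1 vs WT was 4.82, and the test of that difference is WT vs CON, which gave 5.08 (limma adjusted p = 0.000296). For IRS2 the difference was 1.40, and WT vs CON gave 1.43 (limma adjusted p = 0.0220). Both comparisons share the KD1 extracts. No group had 4 or more samples, so single extracts were not tested for lying apart.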

How the results depend on the processing

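Alternative values of the members, PAX3, FOXO1, IRS2 and SOCS3 were each set against the brightest probe. Of these, 531 counted as kept, 12 lost the call, 9 gained one and 39 moved by more than the replicate SD. None of the called values changed sign. Kept means that no call was lost or gained and that an uncalled value stayed within the replicate SD, whatever its direction. A value of 1 replicate alone always lies within the SD of 2, so it could not count as moved. The 2 other filters, the degrees of freedom as limma counts them and dye effects per slide left the ratio unchanged. So did leaving out an extract that the comparison does not use. Such values could only gain or lose a call, so the number kept was partly fixed in advance. With separate channels and no replicate block, which changes the values as well as dropping the pairing within arrays, the probes called fell from 396 to 201 for KD1 against CON, from 272 to 126 for KD1 against WT and from 377 to 115 for WT against CON, and the pathway genes called from 1 to 0 in KD1 vs CON and in WT vs CON. The IRS2 calls were lost in that fit and no call of a member by its brightest probe was, and the share of the block in this was not tested. In the same order, normexp called 26, 1 and 2 probes (and 0 pathway genes in WT vs CON), median centring 111, 102 and 137, and dye effects per slide 1006, 1019 and 1092, with 3, 4 and 3 pathway genes and, in WT vs CON, 2 members. No filter on dim probes gave 253 in KD1 vs CON and 200 in WT vs CON, and the degrees of freedom as limma counts them 154 for KD1 against WT and 233 for WT against CON. The member called beside IGFBP2 was IGF2, as also when any probe of a gene could count (2 members in WT vs CON). With 1 extract left out, probes called ran from 114 to 479, 21 to 543 and 4 to 955; pathway genes from 0 to 3 in KD1 vs CON, 0 to 1 in KD1 vs WT and 0 to 1 in WT vs CON; and members from 0 to 2 in both comparisons with WT. The lone extract of a culture was assumed to vary like the others. The causes were not tested. Dim probes (IGF1, IGFBP4, IGFBP5, IGFBP7) are limited by signal over background.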
